A study of Mus musculus with 2 samples.

Results

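Hox cluster microRNA genes, a set of 6 of the 2202 microRNA genes counted, were followed in adult female mouse heart. The set was Mir10a, Mir10b, Mir196a-1, Mir196a-2, Mir196b and Mir615, taken by matching the gene identifiers of the count tables to the symbols of GENCODE release M21 on build mm10. The 2 libraries, labelled as RNA of size under 30 with no unit stated, carry the strain label 5xFAD/CAST and an age of 8 to 10 months. They form 1 group, with biological replicate numbers 1 and 2, and no control group or second condition was analysed here. 5xFAD is a mouse model of Alzheimer disease whose transgenes are driven by the neuronal Thy1 promoter. CAST is a strain bred from wild-caught mice. The labels do not say whether the transgenes were carried. The donor identifier is shared by both libraries but their biosample identifiers differ, and whether they came from separate animals is not stated. For any difference between the libraries, also one with a small p-value, animal, dissection and technical handling therefore cannot be told apart.

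Hox genes encode transcription factors that set position along the body axis, and in mammals they lie in the clusters Hoxa, Hoxb, Hoxc and Hoxd. Their order along a cluster follows the order in which they are used from head to tail, with low-numbered genes anterior and high-numbered genes posterior. MicroRNAs are short RNAs that repress messenger RNAs, mainly by pairing of the seed, bases 2 to 8 from the 5′ end. MicroRNA genes are interspersed among the Hox genes, and some of their products repress Hox messages: miR-196 directs cleavage of the Hoxb8 message in mouse embryos, and miR-10b represses HOXD10 in human breast cancer cells. In zebrafish, miR-10 acts in endothelial cells during vessel growth. In these tissue libraries fewer cells of a type and less RNA per cell cannot be told apart.

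The mature sequences show which genes the counts can separate. They are from RefSeq (GRCm38.p6), 5′ to 3′, with the seed in capitals, and all 6 genes had an entry.
miR-10a-5p: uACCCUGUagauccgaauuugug
miR-10b-5p: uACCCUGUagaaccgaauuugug
miR-196a-5p: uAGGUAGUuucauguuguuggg
miR-196b-5p: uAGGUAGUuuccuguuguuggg
miR-615-5p: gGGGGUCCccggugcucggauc
miR-615-3p: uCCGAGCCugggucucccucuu
The 5p products of Mir10a and Mir10b share the seed ACCCUGU and differ by 1 base, U12A, counted from 1 at the 5′ end of miR-10a-5p. The 5p products of the Mir196 genes share the seed AGGUAGU, and miR-196a-5p differs from miR-196b-5p by 1 base, A12C. Among the 1679 mature mouse microRNA names in the RefSeq table, no other one had either of these seeds, and none shared a seed with either product of Mir615. The seed of miR-196 also occurs in let-7a-5p, 1 base further in, at positions 3 to 9.

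Mir196a-1 and Mir196a-2 encode the identical miR-196a-5p, so its reads fit a pair of loci. The tables keep reads that map to more than 1 place apart from every gene, and such reads made up 42.4% of replicate 1 and 43.2% of replicate 2. The other arms of these precursors differ, and they are shown because their reads can be told apart, unlike reads wholly inside miR-196a-5p.
miR-196a-1-3p: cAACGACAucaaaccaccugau
miR-196a-2-3p: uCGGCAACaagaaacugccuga
Of the runs of 18 bases in each precursor, 5 of 85 in Mir196a-1 and 5 of 68 in Mir196a-2 also occurred in another precursor of the annotation. The corresponding number was 0 for Mir10a, Mir10b, Mir196b and Mir615. Only identical runs were compared. Whether reads of miR-10a-5p and miR-10b-5p, or of miR-196a-5p and miR-196b-5p, stay apart when mismatches are allowed was not tested. Sharing with the genome outside microRNA genes was not tested. The 5p and 3p products of a gene are counted together in these tables.

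The genes of a family lie at like places in different clusters. Mir10a (ENSMUSG00000065519.1; chr11:96317165-96317274, plus strand) lay inside no annotated gene of its own strand. The next Hox 3′ ends were Hoxb5 upstream and Hoxb4 downstream, with the annotated start of Hoxb4 993 bases beyond the end of Mir10a. Mir10b (ENSMUSG00000065500.3; chr2:74726070-74726137, plus strand) lay in annotated introns of Hoxd3 and Hoxd4, between the 3′ ends of Hoxd8 and Hoxd4. Mir615 (ENSMUSG00000076010.1; chr15:103014910-103015001, plus strand) lay in an intron of Hoxc5, between the 3′ ends of Hoxc6 and Hoxc5.

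The Mir196 genes stood at the posterior side. Mir196a-1 (ENSMUSG00000065546.1; chr11:96265164-96265265, plus strand) lay between Hoxb13 and Hoxb9, inside no annotated gene of its own strand. Mir196a-2 (ENSMUSG00000065488.2; chr15:102973350-102973434, plus strand) lay between the 3′ ends of Hoxc10 and Hoxc9, in an intron of a long annotated transcript of Hoxc5. Mir196b (ENSMUSG00000065443.1; chr6:52230081-52230165, minus strand) overlapped an annotated exon of Hoxa9, between the 3′ ends of Hoxa10 and Hoxa9. Including these 6, the annotation had 7 counted microRNA genes inside the 4 clusters, and the remaining one, Gm44463 in Hoxd, had 0 counts in both libraries.

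**Figure D1:**
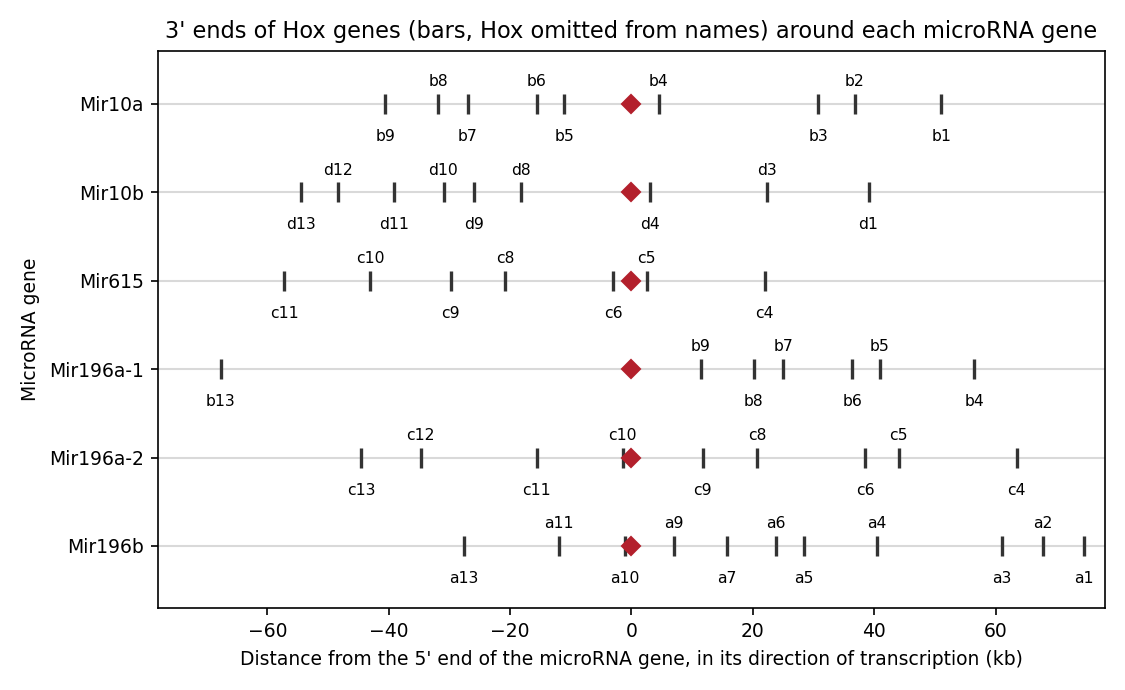
Map of the Hox gene 3′ ends (bars) around each microRNA gene (diamond), with distance in kb from the 5′ end of the microRNA gene along its direction of transcription. Mir10a and Mir10b lie just upstream of Hoxb4 and Hoxd4 3′ ends, Mir615 just upstream of that of Hoxc5, and the Mir196 genes upstream of those of Hoxb9, Hoxc9 and Hoxa9.

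MicroRNA genes received 4186560 counts in replicate 1 and 2877511 in replicate 2, and levels are counts per 1000000 of these (CPM). A count of 0 allows up to 3 counts as a one-sided limit, which is 0.717 CPM in replicate 1 and 1.04 CPM in replicate 2. Intervals are two-sided exact 95% Clopper-Pearson intervals, which reach higher than that limit at a count of 0, and both cover counting error only. Levels were not scaled by length, since the mature products of the 6 genes all have 22 or 23 bases. Of the heart muscle markers, Mir208a had 1638 and 1074 CPM and Mir499 had 4787 and 3618 CPM in replicates 1 and 2. The heart muscle genes Mir1a-1, Mir133a-1 and Mir133a-2 had at most 9 counts in a library and Mir1a-2 had 304 and 194, from reads unique to 1 locus, which set no upper limit on these multi-locus microRNAs.

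Nearly all the counts of the set came from the genes beside Hoxb4 and Hoxd4. The 6 genes had 9521 counts in replicate 1 and 8292 in replicate 2. Their share of microRNA gene counts was 0.227% in replicate 1 (interval 0.223 to 0.232) and 0.288% in replicate 2 (0.282 to 0.294). The mean share was 0.258% ± 0.0430 (SD, n = 2). Mir10a and Mir10b together supplied 98.7% and 98.4% of the counts of the set. The Mir196 genes supplied 1.23% and 1.51%, from reads unique to 1 locus, and Mir615 supplied 0.0945% and 0.0603%.

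Mir10a had the highest level of the set in both libraries. It had 6490 counts in replicate 1 and 4681 in replicate 2, or 1550 CPM (interval 1513 to 1588) and 1627 CPM (1581 to 1674), a mean of 1588 ± 54.1 CPM (SD, n = 2). This placed it at rank 49 of the 709 genes with a count, at rank 53 in replicate 1 and rank 46 in replicate 2. Its level in replicate 2 was 1.05-fold that in replicate 1, before scaling.

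Mir10b came next, and its libraries stood further apart. It had 2905 counts in replicate 1 and 3481 in replicate 2, or 694 CPM (interval 669 to 720) and 1210 CPM (1170 to 1251), a mean of 952 ± 365 CPM (SD, n = 2), at rank 64. In each library the interval of Mir10b lay below that of Mir10a, so the order of the pair was the same in both. The opposite strand held 1 count at Mir10a and 0 at Mir10b over both libraries.

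Mir196b was the only Mir196 gene with more than 3 counts in a library. It had 114 counts in replicate 1 and 122 in replicate 2, or 27.2 CPM (interval 22.5 to 32.7) and 42.4 CPM (35.2 to 50.6), a mean of 34.8 ± 10.7 CPM (SD, n = 2), at rank 186. For each Mir196b count there were 82.4 counts of Mir10a and Mir10b together in replicate 1 and 66.9 in replicate 2. Its 5p and 3p products occurred whole in no other annotated precursor.

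Mir196a-1 had 0 counts in both libraries, and Mir196a-2 had 3 counts in each, or 0.717 CPM (interval 0.148 to 2.09) and 1.04 CPM (0.215 to 3.05). These counts cover only reads unique to 1 locus. They set no upper limit on miR-196a-5p, whose 22 bases occur whole in both precursors.

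Mir615, whose products are not shared with another precursor, was near the limit of detection. It had 9 counts in replicate 1 and 5 in replicate 2, or 2.15 CPM (interval 0.983 to 4.08) and 1.74 CPM (0.564 to 4.06), a mean of 1.94 ± 0.291 CPM (SD, n = 2), at rank 373. Its intervals overlapped those of Mir196a-2 in both libraries, so these neighbours in the order of levels were not separated at this depth. The interval of Mir196b lay above that of Mir615 and below that of Mir10b in both libraries.

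**Figure D2:**
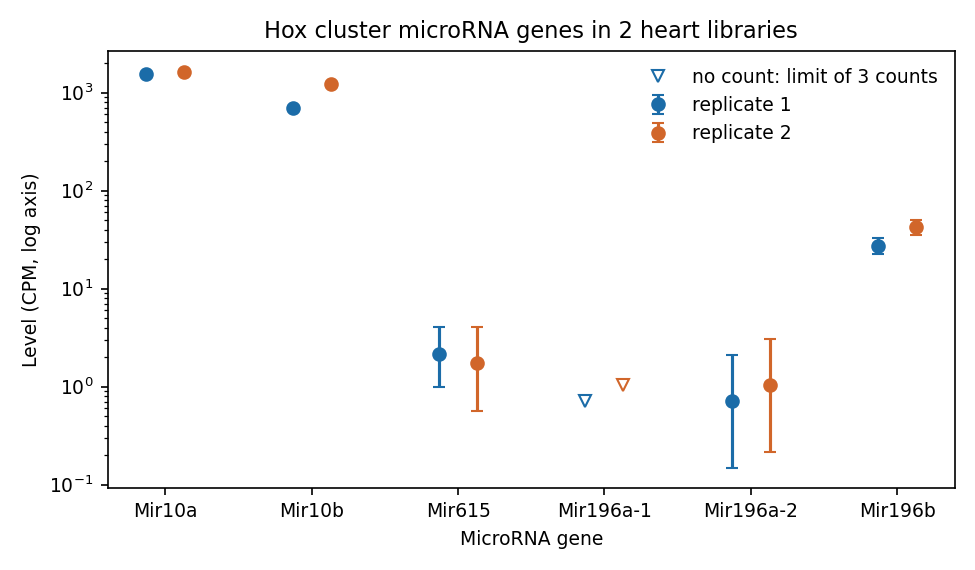
Level in CPM (log axis) of the 6 genes in replicate 1 and replicate 2 of heart, with exact 95% intervals for counting error; open triangles mark a gene with no count, placed at the limit of 3 counts. Mir10a and Mir10b stand between 694 and 1627 CPM, Mir196b at 27.2 and 42.4 CPM, and Mir615 and Mir196a-2 between 0.717 and 2.15 CPM.

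Seen by cluster, the counted microRNA genes of Hoxb had 6490 counts in replicate 1 and 4681 in replicate 2, all at Mir10a. Those of Hoxd had 2905 and 3481, all at Mir10b. Those of Hoxa had 114 and 122, all at Mir196b, and those of Hoxc had 12 and 8, at Mir615 and Mir196a-2. Among reads unique to 1 locus the order Hoxb, Hoxd, Hoxa and Hoxc was the same in both libraries. Hoxb and Hoxc each hold a Mir196a gene whose shared reads were left out, so the places of these clusters in the order with such reads included were not measured.

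The balance of Mir10a and Mir10b differed between the libraries. Mir10b supplied 30.9% of the 9395 counts of the pair in replicate 1 (interval 30.0 to 31.9) and 42.6% of the 8162 counts in replicate 2 (41.6 to 43.7). This is 2.23 counts of Mir10a for each of Mir10b in replicate 1 and 1.34 in replicate 2. The difference in share was beyond counting error (Fisher's exact test, two-sided, p = 2.58e-58; odds ratio of replicate 1 over replicate 2, 0.602). This share needs no scaling between libraries, because both genes were counted in the same library. The test compares these 2 libraries and no conditions, and there are no further replicates to set it against.

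**Figure D3:**
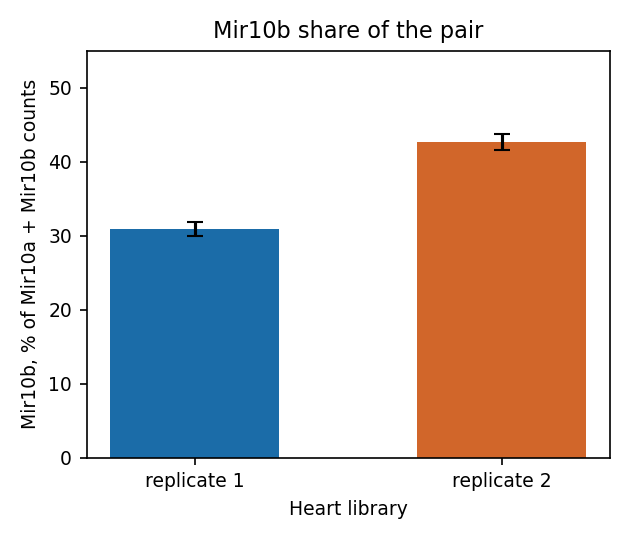
Mir10b as a percentage of the summed Mir10a and Mir10b counts in each heart library (bars), with exact 95% intervals for counting error. The share was 30.9% in replicate 1 and 42.6% in replicate 2, and the intervals do not overlap.

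Between the libraries, 3 of the 6 genes had enough counts for a test over all genes, and Mir196a-1, Mir196a-2 and Mir615 did not pass the filter on low counts. The test was an exact binomial test of each gene's counts given depths scaled by edgeR's trimmed mean of M-values (TMM), with Benjamini-Hochberg adjustment over the 309 genes that passed. In this test 63.4% of all tested genes differed between the libraries at an adjusted p under 0.05, with 35.3% lower and 28.2% higher in replicate 1. That all of Mir10a, Mir10b and Mir196b were called is therefore close to what most genes did. Their median log2 ratio of replicate 1 over replicate 2 was -0.71, against -0.01 over all genes tested.

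Mir10b was lower in replicate 1, with a log2 ratio of -0.87 (interval -0.95 to -0.80; adjusted p = 1.05e-127, exact binomial test), which is 1.83-fold higher in replicate 2. Its difference ranked 75 of 309 by size. Mir196b was lower in replicate 1 as well, with a log2 ratio of -0.71 (interval -1.09 to -0.33; adjusted p = 0.00036, exact binomial test), ranked 109. The typical tested gene differed 1.43-fold, or by 0.51 on the log2 scale in either direction, and the 90th percentile of this size was 1.47. The intervals and p-values of these ratios cover counting error only, so they do not measure the further spread between libraries.

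Mir10a differed least, with a log2 ratio of -0.14 (interval -0.20 to -0.09; adjusted p = 8.64e-07, exact binomial test), ranked 249 of 309. With the size factors of DESeq2 in place of TMM its log2 ratio was 0.0069 and the call was lost (adjusted p = 0.867), while Mir10b and Mir196b stayed lower in replicate 1 and past the threshold. Those factors moved the median of all tested genes up by 0.15 and made 103 calls higher and 83 lower in replicate 1, against 87 and 109 with TMM. Mir615 had a log2 ratio of 0.24 with an interval of -1.50 to 2.16, which spans both directions.

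**Figure D4:**
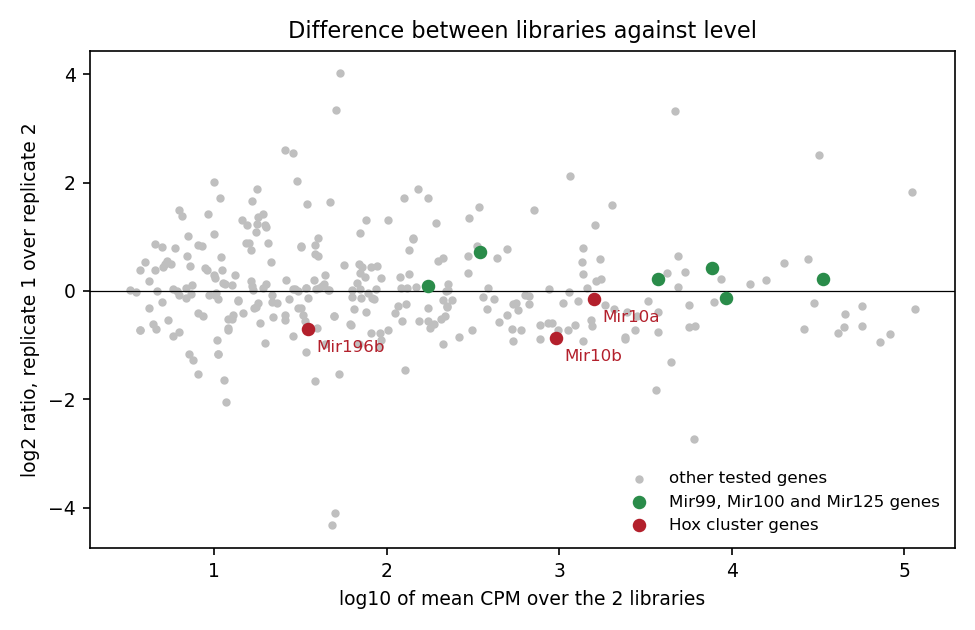
Log2 ratio of replicate 1 over replicate 2 (TMM-scaled) against the log10 of the mean CPM for the 309 genes tested, with Hox cluster genes in red and the Mir99, Mir100 and Mir125 genes in green. Mir10b (-0.87) and Mir196b (-0.71) stand below 0 within the cloud of other genes, and Mir10a (-0.14) is near 0.

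Markers of several cell types also differed between the libraries, as did 63.4% of all tested genes (35.3% lower and 28.2% higher in replicate 1). The part of these markers in the difference of Mir10b and Mir196b was not tested. The smooth muscle markers Mir143 and Mir145a were both lower in replicate 1, with a summed level of 32911 CPM in replicate 1 and 56334 in replicate 2. All 5 leukocyte markers were lower in replicate 1 too, at 5998 and 8349 CPM in sum. Of the endothelial markers, Mir221 and Mir222 were lower in replicate 1 and Mir126a was higher, with sums of 176135 and 49984 CPM.

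Other marker lists had a higher summed level in replicate 1, not always in every gene. The 9 genes of epithelium, kidney and gut summed to 308 CPM in replicate 1 and 92.1 in replicate 2, with 5 of 7 tested genes higher and 0 lower in replicate 1. The cardiomyocyte list summed to 6544 and 4789 CPM, with 3 of 4 tested genes higher, and the fibroblast list to 5305 and 3732 CPM, with 1 of 3 higher and 1 lower. The erythroid list summed to 1747 and 1328 CPM, with Mir144 and Mir451a higher in replicate 1 and Mir486, the most abundant of them, lower (log2 ratio -0.22). The skeletal muscle list summed to 23.6 and 11.1 CPM, with Mir206 higher and Mir133b not past the test. The neuronal list summed to 97.2 and 66.7 CPM, mostly from Mir137, its only tested gene, which was higher in replicate 1 with 404 and 126 counts. In the same list the counts in replicates 1 and 2 were 3 and 63 for Mir9-3, and 0 and 3 for Mir9-1. Mir199a-1 of the fibroblast list was at 0 in both libraries, as were 4 of 7 genes of the neuronal list, Mir9-2 and the Mir124a genes, and these are all microRNAs with further loci.

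The related genes Mir99a, Mir99b, Mir100, Mir125a, Mir125b-1 and Mir125b-2, which are grouped with Mir10a and Mir10b in an ancient family and lie outside the Hox clusters, were set beside them. Some of their products are shown to compare the seeds.
miR-99a-5p: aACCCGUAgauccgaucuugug
miR-100-5p: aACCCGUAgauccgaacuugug
miR-125a-5p: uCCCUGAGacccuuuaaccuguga
None has the seed of miR-10, but miR-10a-5p and miR-100-5p share a run of 11 bases, guagauccgaa, at positions 7 to 17 of miR-10a-5p and 6 to 16 of miR-100-5p. The 6 related genes held 5.99% of counts in replicate 1 and 4.97% in replicate 2, against 0.224% and 0.284% for Mir10a and Mir10b.

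Mir99a alone stood at 33652 ± 4942 CPM (SD, n = 2), and Mir125b-2, the lowest of the related genes in these tables, at 174 ± 14.6 CPM. Mir125b-1 and Mir125b-2 share a whole mature sequence, so their counts cover only reads unique to 1 locus. Of the 6 related genes tested, 4 were higher in replicate 1, Mir99b was lower and Mir125b-2 did not pass, with a median log2 ratio of 0.23. Over all tested genes 28.2% were higher and 35.3% lower in replicate 1. Mir10a, with -0.14, was close to Mir99b, with -0.12, whereas the log2 ratio of Mir10b, -0.87, was below that of each of the related genes.

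The genes nearest to each measured member were found by the distance of log2(CPM + 0.5) over the 2 libraries, which reflects level more than pattern. For Mir10a these were Mir130a, at 1767 and 1477 CPM (distance 0.23), and Mir92-1, at 1507 and 1377 CPM (0.24). For Mir10b they were Mir17, at 764 and 1202 CPM (0.14), and Mir181b-2, at 743 and 1061 CPM (0.21). For Mir196b they were Mir3057, at 27.7 and 41.0 CPM (0.05), and Mir3107, at 28.2 and 39.3 CPM (0.12).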

How the data were processed

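The authors deposited a table of raw read counts for each library, with 1 column that ignores strand and 1 for each strand. Build mm10 and annotation M21 come from the readme, and which aligner was used is not given in the sources used here. Each deposited table keeps 4 classes of reads apart from genes: unmapped (19.0% of 13233055 reads in replicate 1, 17.5% of 8930289 in replicate 2), at several loci (42.4%, 43.2%), outside genes (6.94%, 7.11%) and ambiguous (0% in both). They stayed out of all totals. Counts on the gene's own strand were used.

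CPM were computed over assigned counts. edgeR 4.0.16 (R 4.3.3) gave TMM factors and the low-count filter (filterByExpr, minimum 10), and DESeq2 1.42.0 alternative size factors. With 1 group, edgeR's quasi-likelihood test has no comparison to make, so exact binomial tests in scipy 1.17.1 compared the libraries. In counts simulated for this comparison over 309 genes, it called 81 of 100 changed 1.5-fold, 89 of 100 changed 2-fold and 2 of 109 unchanged. The simulated counts held counting error alone, which is what the test assumes. These figures therefore give no false-call rate for the real libraries.

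Named genes are the set, the Mir99, Mir100 and Mir125 genes, flanking Hox genes, markers, and the 2 genes nearest in level to each member with 10 or more counts in both libraries. Members and lists were chosen with earlier results of these data known. Alternatives covered strand, denominator, scaling, filter and leaving out each library.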

Additional observations from a re-analysis of the deposited data

How the results depend on the processing

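The Mir10b share of the pair ranged from 30.9% to 42.6% when each library was left out, and was 36.8% with strand ignored as with strand. The calls of Mir10b and Mir196b held under every scaling, filter and strand setting tried. Mir10a turned from a log2 ratio of -0.14 to 0.0069 with DESeq2 size factors. Genes differing between libraries numbered 196 of 309 tested (63.4%), and 174 to 214 over the alternatives. The number tested changed too, with 174 of 288 (60.4%) called with strand ignored and 214 of 709 (30.2%) without the filter. No paired analysis was possible because the design holds 1 group.

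Levels in CPM moved with the denominator. With strand ignored, fewer reads were assigned, and mean levels were 2131 for Mir10a, 1254 for Mir10b, 1.17 for Mir196a-2, 46.0 for Mir196b and 2.63 for Mir615. Over all reads they were 507 for Mir10a, 305 for Mir10b, 0.281 for Mir196a-2, 11.1 for Mir196b and 0.620 for Mir615. Without the 10 most abundant genes they were 4688, 2857, 2.63, 104 and 5.69 in the same order of genes. The summed share of the set was 0.343% with strand ignored and 0.0824% of all reads. With strand ignored, Mir10a ranked 44 and Mir615 349 by mean level. With 2 libraries, leaving out 1 leaves the value of the other, so these ranges are the libraries' own values and no check of stability. Leaving out a library gave ranks of 46 to 53 for Mir10a, 54 to 68 for Mir10b, 407 to 445 for Mir196a-2, 173 to 203 for Mir196b and 350 to 378 for Mir615. It gave levels of 1550 to 1627 CPM for Mir10a, 694 to 1210 for Mir10b, 27.2 to 42.4 for Mir196b, 0.717 to 1.04 for Mir196a-2 and 1.74 to 2.15 for Mir615, and summed shares of 0.227% to 0.288%. Depth limits Mir615 and the Mir196a genes, whose counts were at most 9, and reads at several loci limit the Mir196a genes.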
